A study of Mus musculus with 6 samples.

Results

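Stra8 and 9 other genes of the germ line (Stk31, Taf7l, Mael, Hormad1, Dazl, Ddx4, Sycp3, Tdrd1 and Asz1) were followed in mouse embryonic stem cells with and without Sirt1. They are 10 of the 18193 genes that the array reports under a single symbol. Every probe set annotated to exactly 1 of these symbols was taken, 13 in all, and each gene was read on the probe set whose mean over 6 arrays was highest. The wild-type cells were R1 embryonic stem cells of genotype Sirt1+/+ and strain (129X1 x 129S1)F1, and the other cells were R1 cells of genotype Sirt1-/- and the same strain. Both were kept on 0.1% gelatin in medium with 15% serum and leukaemia inhibitory factor (LIF) at 100 IU/ml, with no treatment named. RNA from 3 samples of each genotype was hybridised to 1 Affymetrix expression array per sample. Sirt1 encodes an NAD-dependent protein deacetylase, and the comparison asks which transcripts differ when it is missing. The labels name 1 source of cells per genotype, so Sirt1 loss and any other difference between these sources cannot be told apart. Nor do they say that the samples of a genotype were separate cultures; errors and p-values below cover the spread among 3 samples, which may be technical.

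Germline genes are a set of genes that work in sperm and egg precursors and are kept low in most other cells by DNA methylation and by repressive chromatin complexes, among them a Polycomb complex that holds the DNA-binding proteins E2F6, MGA and MAX. Embryonic stem cells transcribe some of them at a low level. In the gonad, retinoic acid induces Stra8, which starts the meiotic programme, DAZL makes germ cells competent to respond, and the piRNA pathway silences transposons in the same cells.

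Retinoic acid receptors bind DNA through copies of the half-site AGGTCA, so the 250 bases before the start of Stra8 are shown first, with each AGGTCA in capitals (RefSeq, GRCm38.p6, chr6:34920698-34920947, plus strand).
Stra8: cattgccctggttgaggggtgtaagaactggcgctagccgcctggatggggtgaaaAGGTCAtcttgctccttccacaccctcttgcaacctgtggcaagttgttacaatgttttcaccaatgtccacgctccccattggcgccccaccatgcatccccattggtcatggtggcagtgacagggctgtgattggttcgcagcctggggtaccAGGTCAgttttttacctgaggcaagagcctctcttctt
The 2 half-sites begin at -194 and -38 relative to the start, on the strand of the gene. AGGTCA, searched on both strands, lay in 16.0% of 27025 promoters of the same 300 bases (250 before the start and 50 after, the most upstream start of each gene) and in 3 of the 10 genes, the others being Hormad1 and Sycp3. The same window of Stra8 held 4 matches to CCAAT, a motif found in 38.0% of promoters.

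MAX and MGA bind the E-box CACGTG, which reads the same on both strands and lay in the promoters of 7 of the 10 genes, against 7.24% of all promoters. The E-boxes of these genes stand in capitals with their surroundings, on the strand of the gene.
Stk31 (chr6:49395467-49395506): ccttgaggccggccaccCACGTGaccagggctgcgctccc
Taf7l (chrX:134476517-134476556): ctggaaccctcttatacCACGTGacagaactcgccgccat
Mael (chr1:166238945-166238984): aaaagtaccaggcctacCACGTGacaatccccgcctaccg
Hormad1 (chr3:95559603-95559642): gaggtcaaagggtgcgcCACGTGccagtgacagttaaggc
Hormad1 (chr3:95559637-95559676): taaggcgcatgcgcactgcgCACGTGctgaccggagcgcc
Sycp3 (chr10:88459506-88459545): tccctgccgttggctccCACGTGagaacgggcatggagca
Sycp3 (chr10:88459527-88459566): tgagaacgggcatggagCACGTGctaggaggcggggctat
Ddx4 (chr13:112652317-112652356): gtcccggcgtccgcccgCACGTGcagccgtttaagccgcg
Tdrd1 (chr19:56826169-56826208): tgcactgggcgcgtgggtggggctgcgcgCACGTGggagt
Taf7l, Mael, Ddx4 and their coordinates above belong to the minus strand, and the others to the plus strand. Relative to the start, the E-boxes began between -223 (Mael) and -11 (Tdrd1). Those of Taf7l and Mael share the run tacCACGTGaca of 12 bases, the longest that any E-boxes of different genes had in common. No CACGTG lay in the windows of Stra8, Dazl and Asz1. The E2F-type motif GCGGGAA, searched on both strands, lay in Hormad1, Sycp3 and Ddx4 and in 4.67% of all promoters, and no match of one motif overlapped a match of another in the 10 windows.

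The promoters were also rich in CpG, the dinucleotide that is methylated in DNA. The ratio of observed to expected CpG was at least 0.6 in 9 of the 10 windows, against 36.5% of all promoters, and ran from 0.67 (Sycp3) to 1.03 (Taf7l) in those 9. Stra8 was the other gene, with a ratio of 0.43 and 10 CpGs. Since CACGTG contains a CpG, its share among the 9868 CpG-rich promoters, 11.4%, is the nearer comparison for those 9 genes. GCGGGAA contains a CpG too, and its share among the CpG-rich promoters was 10.1%. These motifs were chosen after the sequences had been seen, and a match describes the letters of a window and does not show binding.

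The 10 genes were chosen by their log2 difference in this very contrast and by their role: Stra8, Stk31, Taf7l, Mael and Hormad1 had been read as lower in the knockout in an earlier analysis of these arrays, and the rest are well-known genes of the same programme. Their levels are therefore a description, given with no test. On the log2 RMA scale, where 1 unit is a 2-fold difference, 7 of the 10 genes had all 3 knockout arrays below all 3 wild-type arrays, and the other 3 genes overlapped. The same 7 genes passed as lower in limma, a linear model with moderated variances, at a Benjamini-Hochberg adjusted p under 0.05 over all genes. No member passed as higher, also at an unadjusted p under 0.05. Over all 18193 genes, 30.0% passed in either direction, 17.5% as lower and 12.5% as higher, and 24.7% had every knockout array below every wild-type array. Because the same contrast guided the choice of genes, nothing is read from these counts. The median log2 difference of the 10 genes was -0.64, and that of all genes was -0.01.

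**Figure D1:**
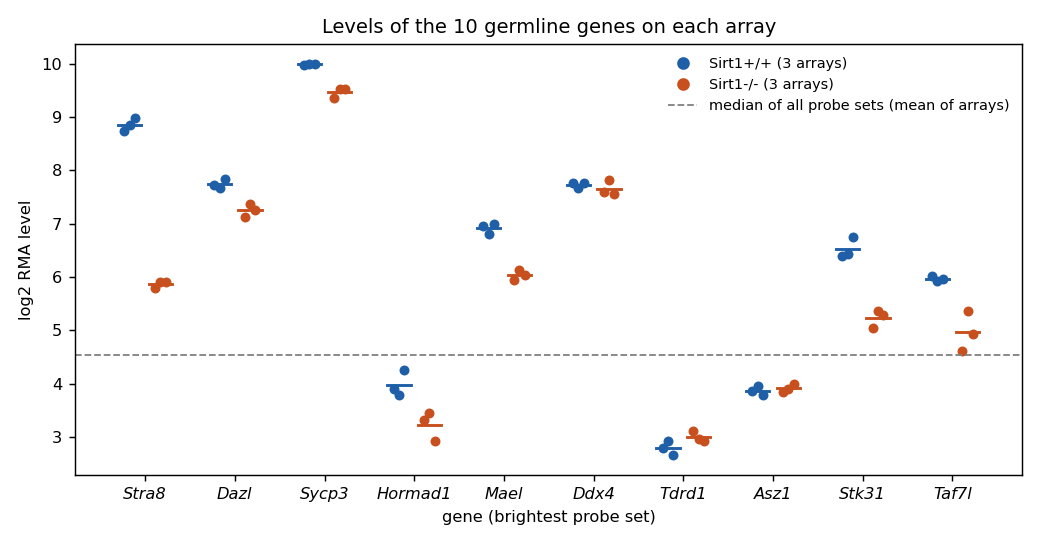
Log2 RMA level (vertical axis) of the 10 germline genes on each array, each on its brightest probe set; points are arrays, horizontal bars are means of 3 arrays, and the dashed line is the median of all probe sets. The 3 Sirt1-/- arrays lie below the 3 Sirt1+/+ arrays for Stra8, Dazl, Sycp3, Hormad1, Mael, Stk31 and Taf7l, and overlap them for Ddx4, Tdrd1 and Asz1.

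Stra8, the gene that starts meiosis on retinoic acid, had the widest separation. It read 8.74, 8.85 and 8.98 in the Sirt1+/+ arrays and 5.80, 5.91 and 5.91 in the Sirt1-/- arrays. The lowest wild-type array lay 2.82 log2 units above the highest knockout array. The means were 8.86 ± 0.12 and 5.88 ± 0.06 (SD, n = 3 each), a log2 difference of -2.98 (SE 0.07), or a 7.89-fold lower level. Only 5 of all 18193 genes, Stra8 included, had a difference this low. In the knockout Stra8 still read above the median of every array (4.51 to 4.57). It has 1 probe set, so no other probe set checks the value.

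Dazl encodes an RNA-binding protein of germ cells that acts upstream of Stra8. Its brighter probe set read 7.73, 7.66 and 7.83 in the Sirt1+/+ arrays and 7.13, 7.37 and 7.25 in the Sirt1-/- arrays. The groups did not overlap, and the log2 difference was -0.49 (SE 0.08), a 1.41-fold lower level. The other Dazl probe set gave -0.53 (SE 0.10), from 7.51 ± 0.12 to 6.97 ± 0.16 (SD, n = 3 each), also without overlap.

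Sycp3 and Hormad1 encode proteins of the meiotic chromosome axis, the scaffold on which homologues pair. Sycp3 read 9.98, 10 and 9.99 in the Sirt1+/+ arrays and 9.36, 9.52 and 9.52 in the Sirt1-/- arrays. The wild-type arrays were nearly identical and all knockout arrays were lower, with a log2 difference of -0.52 (SE 0.06), or 1.44-fold. Hormad1 read 3.90, 3.79 and 4.26 in the Sirt1+/+ arrays and 3.32, 3.45 and 2.92 in the Sirt1-/- arrays, a log2 difference of -0.76 (SE 0.17). All 6 Hormad1 arrays lay under the median of their array and 1 knockout array under its lower quartile, so the signal was close to background and the size of the difference is limited by it. With the replicate number as a block, Hormad1 no longer passed in limma.

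Mael, Ddx4, Tdrd1 and Asz1 belong to the piRNA pathway and the germ granule, where piRNAs are made. Mael, a factor of transposon silencing, read 6.96, 6.81 and 7.0 in the Sirt1+/+ arrays and 5.94, 6.14 and 6.04 in the Sirt1-/- arrays. Its groups were 0.67 log2 units apart, and the log2 difference was -0.88 (SE 0.07), or 1.84-fold. Ddx4, the RNA helicase Vasa, read 7.76, 7.66 and 7.77 in the Sirt1+/+ arrays and 7.59, 7.82 and 7.56 in the Sirt1-/- arrays. These arrays overlapped, with a log2 difference of -0.07 (SE 0.08), at a level well above the array medians. Tdrd1, a scaffold with Tudor domains, read 2.66 to 2.93 in wild type and 2.92 to 3.12 in knockout. Its log2 difference was 0.21 (SE 0.09) and did not pass in limma. All 6 of its arrays lay under the lower quartile of their array, so background limits the size of any fall. Asz1, a protein of the same granule, read 3.79 to 3.96 in wild type and 3.85 to 3.99 in knockout, under the median on every array. The second Asz1 probe set read 2.88 to 3.40 over all arrays, also with overlap.

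Stk31 encodes a protein with a Tudor domain and a kinase-like domain. Its brighter probe set read 6.39, 6.43 and 6.75 in the Sirt1+/+ arrays and 5.04, 5.36 and 5.29 in the Sirt1-/- arrays. The groups were 1.02 log2 units apart, and the log2 difference was -1.29 (SE 0.13), a 2.44-fold lower level. The other probe set read 6.05, 5.57 and 6.07 in the Sirt1+/+ arrays and 4.41, 4.71 and 4.43 in the Sirt1-/- arrays, a log2 difference of -1.38 (SE 0.15). Its type, marked by the suffix x, holds probes that can also match other transcripts, and both sets gave the same direction and a similar size.

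Taf7l, an X-linked germ-cell relative of the general transcription factor subunit TAF7, read 6.01, 5.93 and 5.97 in the Sirt1+/+ arrays and 4.62, 5.37 and 4.93 in the Sirt1-/- arrays. All knockout arrays were lower, but they spread more widely (SD 0.38, against 0.04 in wild type). The log2 difference was -1.0 (SE 0.18). It ranged from -0.82 without knockout replicate 1 to -1.19 without knockout replicate 2.

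**Figure D2:**
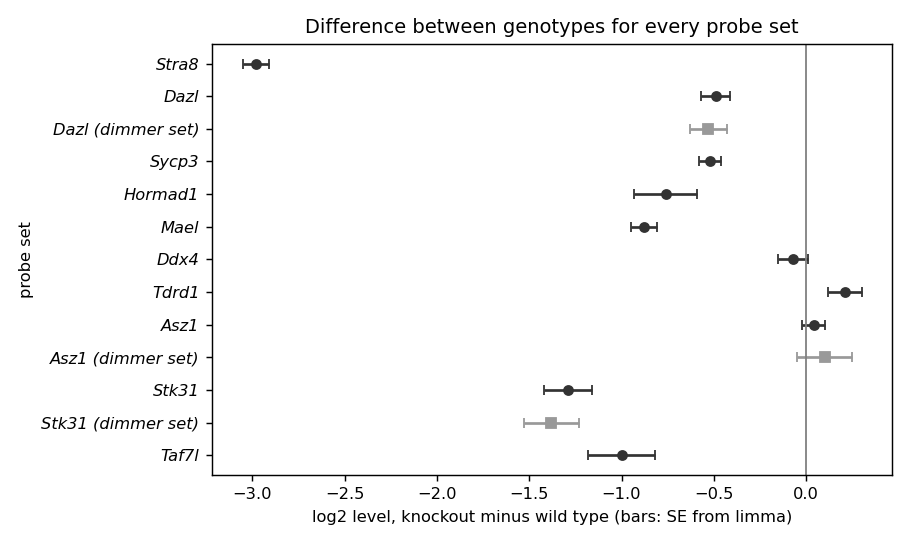
Log2 difference, knockout minus wild type (horizontal axis), for all 13 probe sets of the 10 genes; points are estimates over 3 against 3 arrays and bars are standard errors from limma. Black circles are the brightest probe set of a gene and grey squares the other one; the pairs for Dazl, Stk31 and Asz1 lie within each other's reach.

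Ordered by size, the differences ran from Stra8 (-2.98) to Stk31 (-1.29), Taf7l (-1.0), Mael (-0.88), Hormad1 (-0.76), Sycp3 (-0.52) and Dazl (-0.49), and then to Ddx4, Asz1 and Tdrd1. From Taf7l to Hormad1, neighbours in this order differed by less than 1 standard error, the larger of the pair, as did Sycp3 and Dazl, so their order is not resolved. With 1 array left out, the ranges of Stk31 (-1.35 to -1.17) and Taf7l (-1.19 to -0.82) overlapped, so that order is not resolved either. Those of Hormad1 (-0.87 to -0.60) and Sycp3 (-0.55 to -0.47) did not overlap. Such ranges are not an error of a difference, and Hormad1 had an SE of 0.17 near background. The order of these genes is therefore not taken as resolved either. The CACGTG motif lay in 5 of the 7 genes without overlap between genotypes and in 2 of the 3 with overlap. Of those 3, Tdrd1 and Asz1 read under the median on every array, so background limits the size of any fall. The genes are few and were chosen with this contrast known, and a part of the motif was not tested. Stra8, which differed most, had none. Among the other genes of the array with a promoter window, 247 of 1295 genes with CACGTG passed as lower in limma and 236 as higher, against 2315 and 1627 of 13062 genes without it. Restricted to CpG-rich promoters, 21.8% of 943 genes with CACGTG were lower and 20.7% higher, against 23.6% and 16.3% of 7263 without it. These shares are descriptions over genes, which are not independent replicates.

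The chromosomal surroundings of the genes were read next, as the 5 measured genes on each side in gene order. Stra8 lies on chromosome 6 between Wdr91 and Slc23a4, whose log2 differences were 0.07 (SE 0.05) and -0.16 (SE 0.07). The 10 neighbours of Stra8 ran from -0.47 for Cald1, which encodes the actin-binding protein caldesmon, to 0.39, with a median of 0.04. The neighbours of Stk31, also on chromosome 6, had a median of 0.11, and those of Taf7l a median of -0.07. None of the 10 neighbours was as low as the gene itself for Stra8, Stk31, Taf7l, Hormad1 and Dazl. All of these but Dazl were chosen as low in this contrast, so nothing is read from that. As low as the gene itself were 6 of 10 neighbours for Ddx4, 7 for Asz1 and all 10 for Tdrd1. For Mael, Tada1 was lower still (-0.98). For Sycp3, 2 neighbours were lower, the lowest being Dram1 (-1.08), a regulator of autophagy. Over all 100 neighbours, 23 passed as lower and 9 as higher in limma, with a median of -0.04. Among all genes 17.5% passed as lower and 12.5% as higher, with a median of -0.01.

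**Figure D3:**
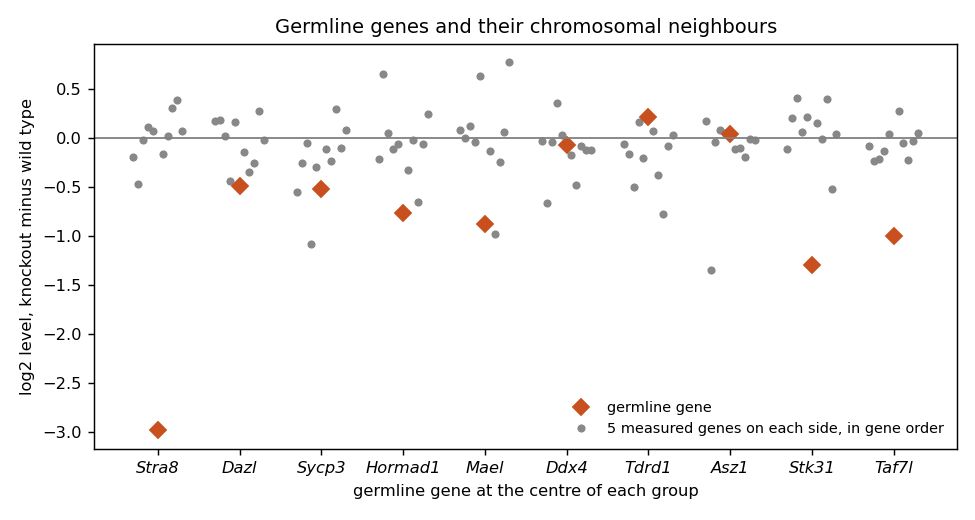
Log2 difference, knockout minus wild type (vertical axis), of each germline gene (orange diamond) and of the 5 measured genes on each side of it in gene order (grey points, left to right). Stra8 at -2.98 lies far below its neighbours, which run from -0.47 to 0.39.

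The genes most like Stra8 over the 6 arrays were sought by the root-mean-square distance between profiles, each centred on its own mean, among genes above the median level. The nearest were Srgn (distance 0.31 log2 units), Pdgfc (0.31), Serpinb6c (0.34), Pla2g1b (0.36), Sirt1 (0.45) and Rundc3b (0.45). Srgn, a proteoglycan core protein, read 9.92 to 10.04 in wild type and 7.59 to 7.64 in knockout. Pdgfc, a growth factor, read 8.24 to 8.25 and 5.77 to 5.93. None of the 6 is a germline gene of the lists below. Among the other 9 germline genes Stk31 lay nearest (0.85). These are descriptions of 6 arrays that fall into 2 separate groups. Sirt1 itself, the targeted gene, read 10.12, 10.13 and 10.23 in the Sirt1+/+ arrays and 8.02, 7.94 and 8.20 in the Sirt1-/- arrays; where its probe set lies relative to the deleted part was not given in the sources used here.

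Other genes of the germline programme and of its control were then counted from lists that leave out the 10 genes. Each count is of genes past limma's adjusted threshold over all genes, to be read beside 17.5% lower and 12.5% higher among all genes. The lists also differ in signal. A wild-type mean above the array median (mean of arrays) was found for 11550 of all 18193 genes. Counts were 31 of 33 chromatin repressors, 21 of 25 piRNA genes and 19 of 22 primordial germ cell factors. They were 27 of 38 meiotic, 19 of 37 male germline, 14 of 26 retinoic acid and 9 of 23 oocyte genes. For close relatives and Y-linked genes they were 7 of 10 and 4 of 7. The part of signal level in these shares was not tested. A lower germline list had been seen before in these data, so the counts are not independent evidence of its direction.

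**Figure D4:**
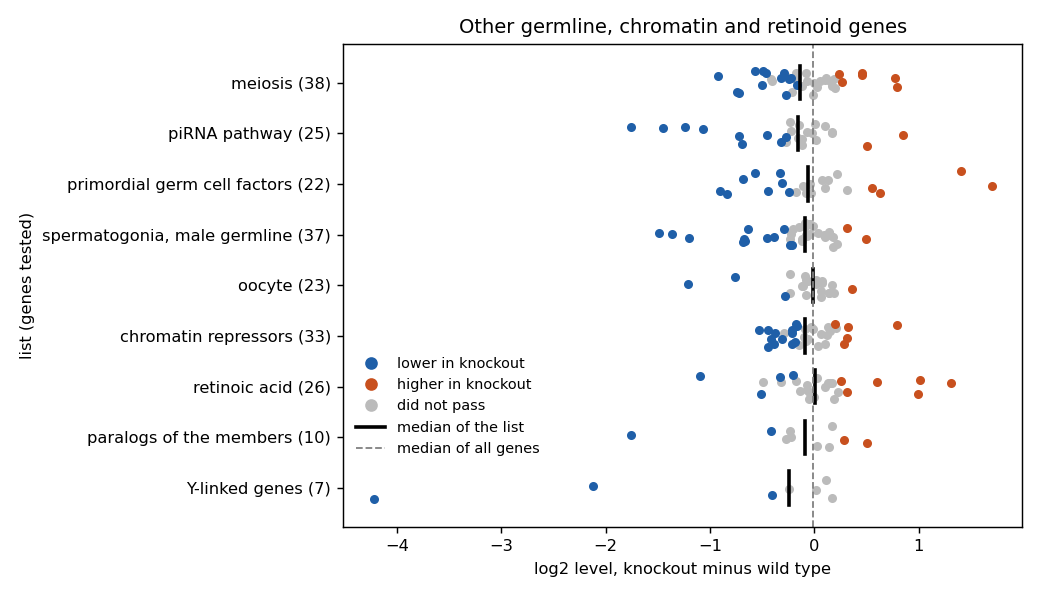
Log2 difference, knockout minus wild type (horizontal axis), of the genes in 9 lists, without the 10 germline genes themselves; each point is a gene, blue where it passed limma as lower, orange where it passed as higher and grey where it did not pass. Black bars are list medians, from -0.24 (Y-linked genes) to 0.01 (retinoic acid), and the dashed line is the median of all genes, -0.01.

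In the piRNA pathway 9 of 25 genes fell (36.0%), 2 rose and 14 did not pass, with a median of -0.16. Tdrd7, a Tudor-domain protein of the germ granule, fell from 6.35 ± 0.05 to 4.59 ± 0.26 (SD, n = 3 each). Its log2 change was -1.76 with an SE of 0.13 (adjusted p = 0.000229 in limma), although its other probe set read -0.01. Gpat2, a mitochondrial protein needed for piRNA production, fell by 1.45, and Tex15, which guides DNA methylation to transposons, fell by 1.24. Rnf17, a Tudor-domain relative of Tdrd1, fell by 1.07, with its other probe sets between -1.31 and 0.00. The helicase Mov10l1 fell by 0.69. Pld6, an outer mitochondrial nuclease of the pathway, rose by 0.85, and Tdrkh, which anchors PIWI proteins to mitochondria, rose by 0.51.

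Of 38 meiotic genes 13 fell (34.2%), 6 rose and 19 did not pass, with a median of -0.14. Smc1b, the meiotic cohesin subunit, fell from 7.36 ± 0.03 to 6.44 ± 0.02 (SD, n = 3 each). Its log2 change was -0.92 with an SE of 0.04 (adjusted p = 6.72e-05 in limma). Terb1, which ties telomeres to the nuclear envelope, fell by 0.74 (adjusted p = 0.0475 in limma), and its other probe set read -0.82. The Terb1 means were 4.53 in wild type, close to the array medians, and 3.79 in knockout, under them. Stag3, another meiotic cohesin subunit, rose by 0.79, from 8.48 ± 0.07 to 9.27 ± 0.03 (SD, n = 3 each), and the synaptonemal complex protein Syce2 rose by 0.77. Syce2 lies on chromosome 8, where 33.6% of 932 genes rose, and so do Terb1 and Tex15, which fell. Zglp1, a factor of oogenic entry into meiosis, fell by 0.29, and Ythdc2, a helicase that works with the meiotic regulator Meioc, fell by 0.57. The count of 19 changed genes was 10 without wild-type replicate 1 and 12 without knockout replicate 2.

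Of 37 genes of spermatogonia and the male germ line 12 fell (32.4%), 2 rose and 23 did not pass, with a median of -0.09. Tex13b fell by 1.49, to a knockout mean of 3.73, under the array medians, and its other probe set read -0.76. Sohlh2, a transcription factor of germ-cell differentiation, fell from 8.31 ± 0.10 to 6.95 ± 0.07 (SD, n = 3 each). Its log2 change was -1.36 with an SE of 0.07 (adjusted p = 7.58e-05 in limma). Neurog3, a marker of progenitor spermatogonia that also acts in the pancreas, fell by 1.20, while a second probe set of it read -0.60. Dmrt1, which controls the switch from mitosis to meiosis, fell by 0.68. In the oocyte list 3 of 23 genes fell, 1 rose and 19 did not pass, with a median of -0.01. Both shares lay under those of all genes, 17.5% lower and 12.5% higher, and the median of all genes was also -0.01. Ooep, an oocyte and early embryo protein, fell by 1.21, the zona pellucida gene Zp3 by 0.76 and the oocyte transcription factor Figla by 0.28, while Tle6 rose by 0.36. Zp3 fell to a knockout mean of 4.09, under the array medians. The Figla means were 4.52 in wild type, close to the array medians, and 4.24 in knockout, under them.

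Factors of primordial germ cells, many of which also serve pluripotency, changed in both directions. Of 22 genes 8 fell (36.4%), 4 rose and 10 did not pass, with a median of -0.06. Nanog fell by 0.90 and Prdm14, which specifies primordial germ cells, by 0.84. Prdm1, which represses the somatic programme in these cells, fell by 0.68. Dppa3 (Stella) rose by 1.70, from 5.21 ± 0.06 to 6.91 ± 0.05 (SD, n = 3 each), and the membrane mucin Pdpn by 1.41 (adjusted p = 2.89e-05 and 5.13e-05 in limma).

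In the list of chromatin repressors of germline genes 13 of 33 fell (39.4%), 5 rose and 15 did not pass, with a median of -0.09 and mostly small changes. The list also holds Tet1, Tet2 and Tet3, which remove DNA methylation and are not repressors. Tet1 and Tet2 are among the 13, at -0.18 and -0.38, and Tet3 did not pass. With all probe sets of a gene averaged 8 were lower and 8 higher, so the excess of lower genes was lost. The DNA methyltransferase Dnmt3a rose by 0.79, from 7.84 ± 0.02 to 8.63 ± 0.06 (SD, n = 3 each), with an adjusted p of 0.000139 in limma, with its other probe sets between -0.02 and 0.77. Its partner Dnmt3l rose by 0.32, while Dnmt3b fell by 0.39. The histone demethylases Kdm5c and Kdm1a fell by 0.53 and 0.44 and the deubiquitinase Usp7 by 0.44; other probe sets of Kdm5c and Usp7 reached up to 0.48 and 0.40. In the Polycomb complex named above, Max rose by 0.31, and L3mbtl2 and E2f6 fell by 0.17 and 0.21, with the other E2f6 probe set at 0.60. Mga, its other DNA-binding protein named above, did not pass (0.21, other probe sets between -0.02 and 0.60). Nor did its subunits Pcgf6, Cbx3, Tfdp1, Ring1 and Rnf2. The count of 18 changed genes was 10 without wild-type replicate 1, 11 without wild-type replicate 3, 11 without knockout replicate 2 and 11 with the replicate number as a block.

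Stra8 is a target of retinoic acid, and the list of retinoic acid supply, receptors and targets, taken as a whole, changed in both directions. Of 26 genes 6 rose (23.1%), 4 fell (15.4%) and 16 did not pass, with a median of 0.01. Crabp2, which delivers retinoic acid to its receptors, rose by 1.31, the retinol-handling reductase Rdh11 by 1.01 and the homeobox target Cdx1 by 0.99. The retinol carrier Rbp4 fell by 1.10. The others that fell were Crabp1 (-0.51), Aldh1a2 (-0.33) and Rxrb (-0.20), like Rbp4 genes of supply or receptors. Also on the list, Cyp26a1 (-0.05), Rarb (-0.49), Hoxb1 (0.03), Meis1 (0.13), Foxa1 (-0.32) and Stra6 (0.15) did not pass. Their means lay under the array medians. Close relatives of the 10 genes were counted too. Of 10 measured, 2 rose and 2 fell: Tdrd7 and Tdrkh as above, Taf7, the general counterpart of Taf7l, which fell by 0.42 (other probe sets -0.40 and -0.07), and Ddx3x, a somatic relative of Ddx4, which rose by 0.28.

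Y-linked genes were counted because several serve in spermatogonia. Of 7 measured 3 fell: Uty fell by 4.22, Uba1y fell by 2.12 and Eif2s3y fell by 0.41, with the other Eif2s3y probe set at 0.33. The other Uty probe sets read between -3.21 and -0.29 and that of Uba1y -0.95. Uty read 2.52, 2.96 and 3.16 in knockout, under the lower quartile of each array, so background limits the size of its fall. None rose in limma, and all genes with an unadjusted p under 0.05 were these 3. Without wild-type replicate 3 the count was 5, with 4 lower and 1 higher. None of the 10 germline genes is Y-linked.

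The cells carried the markers of their label. All 10 pluripotent stem cell markers lay above the array medians, and Pou5f1 read 12.25 to 12.32 in wild type and 12.37 to 12.41 in knockout. Of these 10 markers 6 fell in limma (8 at an unadjusted p under 0.05) and 0 rose (0 unadjusted), and the log2 of their summed level was 15.78 to 15.81 in wild type and 15.50 to 15.55 in knockout. Markers of other cell types moved beside the germline genes. In limma 6 of 10 endoderm markers fell and 0 rose (0 unadjusted as well), and the log2 of their summed level was 8.87 to 8.90 in wild type and 7.74 to 7.92 in knockout, with 2 markers under the array medians in both groups. The 6 were Cubn (-2.24), Dab2 (-1.80), Pdgfra (-1.52), Gata6 (-1.33), Sox17 (-0.78) and Sox7 (-0.65). Other probe sets read -1.27 for Cubn, -0.47 to -0.22 for Dab2 and -0.09 to 0.11 for Pdgfra. They read -0.35 to -0.04 for Gata6, -1.95 for Sox17 and 0.16 for Sox7. The summed level of 10 fibroblast markers, 7 of them under the array medians in both groups, was 8.51 to 8.68 and 8.19 to 8.36. Of these 10, Twist1 was higher by 0.48, Thy1 fell by 1.07, Pdgfrb fell by 0.50, and the other 7 did not pass. For 6 neural markers the sum was 7.76 to 7.82 and 8.05 to 8.14, where Tubb3 and Nes rose by 0.76 and 0.43, Map2 fell by 0.59 and 3 did not pass. Tubb3 lies on chromosome 8, where 33.6% of 932 genes rose. Other probe sets read 0.08 to 0.67 for Nes and -0.09 to 0.32 for Map2. Of the markers that did not pass, those of Pax6 read 0.21 to 1.51 and that of Sox1 -0.44. Of 4 measured markers of 2-cell-like cells none passed in limma (1 at an unadjusted p under 0.05). Tcstv1, Tcstv3 and Usp17la lay under the array medians in both groups, so the sum, 9.86 to 9.94 and 9.71 to 9.80, is nearly that of Eif1a alone (means 9.87 and 9.71). Markers of testis soma, 4 of 9 under the array medians in both groups, summed to 8.65 to 8.74 and 8.85 to 8.91; of these 9 Rhox5 alone passed in limma, rising by 0.43 from a mean of 7.67 to 8.09. The part of these cell types in the levels of Stra8 and the other germline genes was not tested. In bulk RNA, fewer cells that express a gene and less RNA per cell cannot be told apart.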

How the data were processed

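The deposited values are log2 levels per probe set. Partek 6.5 and RMA are named in the submitters' processing notes. RMA subtracts background, equalises the distributions of arrays and combines the probes of a set. The log2 scale was inferred from the values; the order of steps was not given in the sources used here. Each of 18193 genes with a single symbol was read on its brightest of 34945 probe sets, without a filter on dim ones. The genotypes were contrasted by limma 3.58.1 under R 4.3.3 (lmFit, eBayes, two-sided, Benjamini-Hochberg at 0.05), checked on simulated data. Having 3 arrays a genotype limits precision. Members, lists and tests were chosen with earlier results of these data known. Named list genes are up to 4 per list, by size of change, that passed without overlap, and every Y-linked gene past the threshold. Other genes were named after their values were seen: Mov10l1, Pld6, Zglp1, Ythdc2, Prdm1, Dnmt3b, Dnmt3l, the Tet genes and the Polycomb subunits. So were the neighbouring genes, the retinoic acid genes other than Crabp2, Rdh11, Cdx1 and Rbp4, and single cell-type markers other than Pou5f1. List symbols were matched to the array through GRCm38.p6 names, and promoters came from RefSeq.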

Additional observations from a re-analysis of the deposited data

How the results depend on the processing

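The 7 germline genes lower in the knockout passed in limma when probe sets were averaged, quantile normalisation was repeated, arrays were centred on their medians, a robust intensity trend was fitted, or any 1 array was left out. Without the dimmest 40% of genes 7 of the 10 could be tested and 6 passed. Stra8 ranged from -3.04 to -2.92 with 1 array left out. At an adjusted p under 0.01 the changed genes numbered 3356 in all, 8 of the meiotic list and 7 of the piRNA list. They were 7 of the male germline list and 9 of the chromatin repressor list. With 1 array left out the counts ran from 10 to 17 (meiosis), 10 to 14 (repressors) and 3 to 5 (Y-linked). The labels do not say that like-numbered samples were handled together, and their deviations correlated across genes at 0.0515, -0.0865 and 0.198. With the replicate number as a block, 4700 genes passed, 11 of the repressor list did and Hormad1 did not. The other lists stayed within 1.5 times their counts. Signal near background limits Hormad1, Asz1 and Tdrd1.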
